A study of Mus musculus with 4 samples.

Results

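The genes of the proteasome, the protease complex that degrades proteins tagged with ubiquitin, were described across mouse testis sections with and without H3t, a testis-specific histone H3 variant. Members were the protein-coding genes whose symbol begins with Psma, Psmb, Psmc, Psmd, Psme, Psmf or Psmg followed by a digit. This rule found 49 of the 28595 genes in the table. Psmc3ip, a meiotic recombination cofactor named for its binding to Psmc3, matched the rule but is not part of the complex, which left 48 proteasome genes. Psmb8, the inducible replacement of Psmb5, was not analysed here.

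RNA was counted with photo-isolation chemistry, a spatial method that sequences complementary DNA only from the tissue area exposed to ultraviolet light, which removes a chemical cage from the primers. The 4 groups were H3t-knockout (KO) testis lit over the entire section, wild-type (WT) testis lit over the entire section, KO testis lit only over Leydig cells, and WT testis lit only over Leydig cells, with 3 libraries each. The WT groups carry the word young in their titles, and no age is given for the KO groups. Sections were 10 µm thick, and the labels name no other treatment, strain or allele. The 3 libraries of a group share 1 sample record, and the labels do not say whether each is a different animal. The p-values therefore reflect the spread between libraries, which may be technical. Any batch that coincided with a group could not be told apart from it.

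KO section libraries held 321771 to 475764 counts and WT section libraries 247539 to 566527. Leydig-targeted libraries were shallower, at 15208 to 53003 counts in KO and 5947 to 54882 in WT, and proteasome genes together had 78 to 256 counts per KO Leydig-targeted library and 10 to 220 per WT Leydig-targeted library. All 10 Leydig markers had counts in both Leydig-targeted groups, where they took 6.16% to 7.44% of counts in KO and 1.24% to 2.79% in WT. Spermatid markers took 0% to 0.0126% of counts in KO Leydig-targeted libraries and 1.33% to 2.66% in WT Leydig-targeted libraries, so germ cell transcripts were also counted in the WT Leydig-targeted libraries. In sections, 10 spermatid markers took 0.0054% to 0.0796% of counts in KO and 2.68% to 5.15% in WT, and 10 spermatocyte markers took 0.012% to 0.0193% in KO and 0.655% to 0.909% in WT. Among the 10 spermatid markers, Tssk1 had no count in KO sections, and none of the 10 spermatocyte markers was at 0 there. All 18 markers of these 2 lists that were tested, 10 spermatid and 8 spermatocyte genes, were lower in KO sections, against 39.1% of all genes tested. Markers this low in KO could pass the filter on low counts (66.1 CPM in at least 3 libraries) mainly through WT libraries. The direction of these calls was thus largely set in advance. The 8 spermatogonial markers took 0.0538% to 0.0597% of counts in KO sections and 0.0478% to 0.0602% in WT sections. Of 3 tested, 1 was higher and 2 lower in KO sections, against 22.6% higher and 39.1% lower of all genes tested. Fewer cells of a type and less RNA per cell cannot be told apart in these bulk libraries, and the part of the germ cell markers in the results that follow was not tested.

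The standard proteasome has a barrel-shaped core made of stacked rings of alpha (Psma) and beta (Psmb) subunits, with the active sites inside on Psmb5, Psmb6 and Psmb7. A regulatory particle of ATPases (Psmc) and non-ATPase subunits (Psmd) caps the core, recognises ubiquitin, unfolds the substrate and feeds it in. Other caps, PA28 (Psme1 with Psme2, or Psme3 alone) and PA200 (Psme4), open the core without unfolding ubiquitin-tagged proteins. In mouse male germ cells Psma8 takes the place of Psma7, and PA200 is known for its part in spermatogenesis and in the degradation of acetylated histones. Cells exposed to interferon replace the active subunits with Psmb8, Psmb9 and Psmb10 and make more Psme1 and Psme2, which favours peptides for antigen presentation.

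The promoter windows of the 4 genes with the smallest p in the section comparison are printed because they carry its most strongly changed members, 1 higher and 3 lower in KO. Each runs 5′ to 3′ from 250 bases before to 50 bases after a start site in RefSeq, on build GRCm38.p6. Capitals mark matches, on either strand, to the core of the interferon response element (2 copies of GAAA separated by any 2 bases) in Psme1, TGACNNNGC (a core of the antioxidant response element) in Psme4 and CCAAT in Psmc2.
Psme1 (chr14:55578244-55578543, plus strand): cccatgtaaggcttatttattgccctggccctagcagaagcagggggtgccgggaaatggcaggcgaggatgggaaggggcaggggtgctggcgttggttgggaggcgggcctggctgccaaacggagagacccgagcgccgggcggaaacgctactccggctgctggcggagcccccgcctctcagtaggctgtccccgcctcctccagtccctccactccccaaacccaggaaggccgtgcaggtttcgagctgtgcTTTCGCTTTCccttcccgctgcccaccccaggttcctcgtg
Psmf1 (chr2:151741261-151741560, minus strand): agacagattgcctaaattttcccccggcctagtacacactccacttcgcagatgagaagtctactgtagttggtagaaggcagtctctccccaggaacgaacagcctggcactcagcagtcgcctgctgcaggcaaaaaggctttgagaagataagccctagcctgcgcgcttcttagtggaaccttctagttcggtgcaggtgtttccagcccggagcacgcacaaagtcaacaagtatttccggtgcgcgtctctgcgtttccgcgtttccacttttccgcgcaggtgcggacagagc
Psme4 (chr11:30771525-30771824, plus strand): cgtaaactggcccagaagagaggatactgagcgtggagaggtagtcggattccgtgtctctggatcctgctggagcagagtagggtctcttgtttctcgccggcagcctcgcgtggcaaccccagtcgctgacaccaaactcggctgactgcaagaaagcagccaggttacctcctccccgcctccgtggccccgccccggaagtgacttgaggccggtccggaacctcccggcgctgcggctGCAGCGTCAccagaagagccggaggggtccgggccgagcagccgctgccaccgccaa
Psmc2 (chr5:21785025-21785324, plus strand): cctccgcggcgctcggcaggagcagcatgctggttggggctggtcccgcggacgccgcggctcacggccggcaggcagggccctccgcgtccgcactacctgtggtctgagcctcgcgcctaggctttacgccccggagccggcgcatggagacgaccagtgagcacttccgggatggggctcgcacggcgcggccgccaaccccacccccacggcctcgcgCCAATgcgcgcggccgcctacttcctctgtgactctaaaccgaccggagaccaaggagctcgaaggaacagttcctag

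RefSeq promoter windows were found for 41 of the 49 genes of the rule, and Psmc2 had more than 1 start, of which the first is shown. Psmf1 held none of the motifs searched. The interferon response core was found in 5 of the 41 genes (12.2%), Psmb3, Psmd4, Psmd9, Psme1 and Psmg4, and in 3.44% of 32851 windows in the table. TGACNNNGC was found in 6 genes (14.6%), Psmb5, Psmb6, Psmc6, Psmd12, Psmd9 and Psme4, against 12.4% of all windows. CCAAT was found in 15 genes (36.6%) against 37.4% of all windows, and TGACGTCA, the cAMP response element, in 0 of 41 against 1.79%. These are matches of letters within the window and not binding sites.

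Summed over the family, proteasome transcripts took nearly the same share of section counts in both genotypes, while the members moved in different directions. The 48 genes held 0.447%, 0.434% and 0.447% of counts in KO sections, against 0.451%, 0.455% and 0.446% in WT sections. The group means were 0.443% ± 0.0078 in KO and 0.451% ± 0.0046 in WT (SD, n = 3 each), and the ranges overlapped. As a share of protein-coding counts they did not overlap, at 0.466%, 0.456% and 0.472% in KO sections and 0.486%, 0.492% and 0.484% in WT sections. One gene, Psmf1, made up 1.37% of family counts in KO sections (95% exact interval 1.07% to 1.72%) and 19.5% in WT sections (18.5% to 20.5%). Without Psmf1, a choice made after its share was seen, the other 47 genes held 0.437% ± 0.0087 of counts in KO sections and 0.359% ± 0.0333 in WT sections (SD, n = 3 each), and every KO section was above every WT section.

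In a test across all genes that passed a filter on low counts, with libraries scaled by TMM (a factor that brings the typical gene of each library to a common level), 29 of the 48 proteasome genes could be tested. Of these, 4 were higher and 7 lower in KO sections at an adjusted p under 0.05 (edgeR quasi-likelihood, Benjamini-Hochberg). Of all 5182 genes tested, 61.6% were called in this comparison, 22.6% higher and 39.1% lower, against 11 of 29 proteasome genes. The median log2 fold change was 0.10 over the 29 proteasome genes and -0.35 over all genes tested. Scaling by library size alone moved the median of all genes up by 0.57, to 0.22, and that of the proteasome genes to 0.65. The split of calls then became 11 higher and 4 lower, against 35.9% higher and 32.9% lower over all genes. Psme1, Psma2, Psma7 and Psmb1 were higher, and Psmf1, Psme4, Psmc2 and Psmc3 lower, under all 4 scalings run, while Psma6, Psmd2 and Psmd8 kept their direction but lost their call with library size alone.

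**Figure D1:**
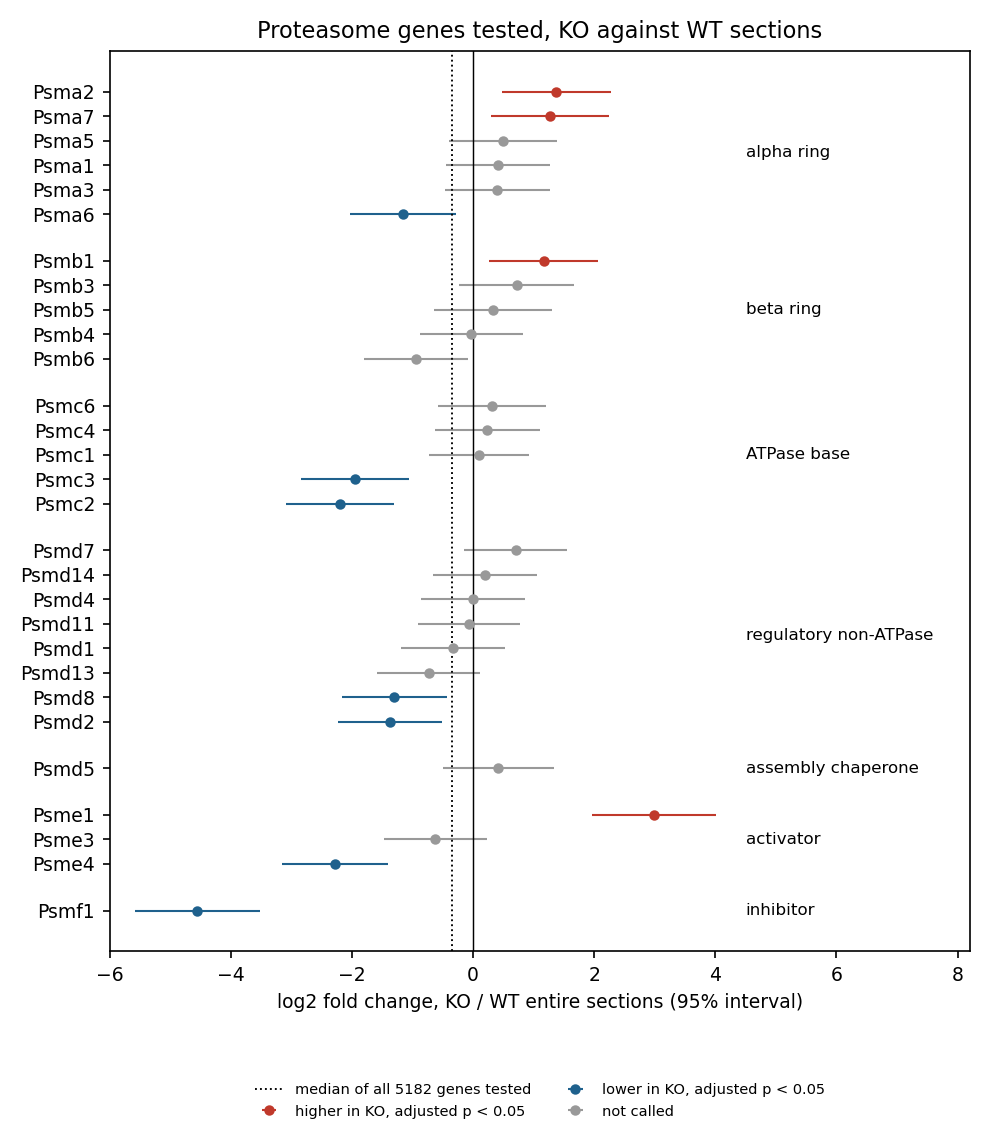
Log2 fold change of each of the 29 proteasome genes tested, KO over WT entire sections, by class of subunit, with 95% intervals; the dotted line marks the median of all genes tested at -0.35. Psme1 lies at 2.98 and Psmf1 at -4.55, while the 18 uncalled genes lie between -0.94 and 0.72.

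The order of the libraries was also compared in CPM (counts scaled to the library total), which includes genes below the filter. Of 44 proteasome genes with at least 10 counts over the 6 section libraries, 22 (50%) had every KO section above every WT section, against 31.1% of all genes with as many counts. Another 7 (15.9%) had every KO section below every WT section, against 32.4% of all genes. These were Psma8, Psmc2, Psmc3, Psmd2, Psmd8, Psme4 and Psmf1. CPM is scaled by library size alone, and so are the class sums below and the shares of counts above. TMM factors were 0.567 to 0.772 in WT sections and 0.975 to 1.05 in KO sections. TMM therefore raises WT section levels relative to KO ones, and differences between class sums may depend on the scaling.

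**Figure D2:**
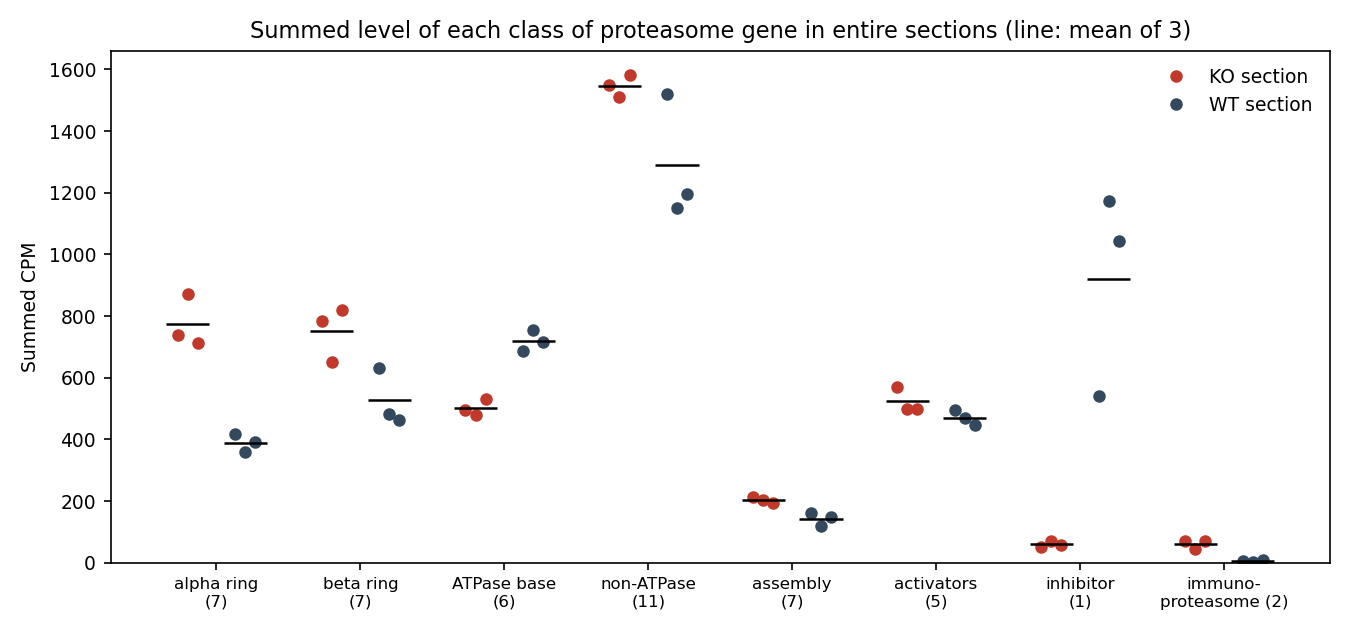
Summed CPM of each class of proteasome gene in each entire-section library, KO left of WT within a class, with the number of genes in parentheses and lines at the means of 3 libraries. The alpha ring sums lie between 712 and 872 in KO and between 360 and 417 in WT, while the ATPase base and Psmf1 are lower in KO.

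The alpha ring gates entry to the core. Its 7 standard genes summed to 774 ± 86.1 CPM in KO sections and 389 ± 28.5 CPM in WT sections (SD, n = 3 each), without overlap. Of 6 tested, Psma2 and Psma7 rose and Psma6 fell, with log2 fold changes between -1.15 and 1.38 over the class.

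Psma2 had 135, 161 and 112 CPM in KO sections, against 33.5, 36.4 and 32.3 CPM in WT sections. All KO sections were above all WT sections, and the log2 fold change was 1.38 ± 0.46 (SE, adjusted p = 0.00551, edgeR quasi-likelihood). It kept its call in every alternative run.

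Psma6 had 39.9, 51.0 and 90.1 CPM in KO sections, against 60.0, 97.6 and 105 CPM in WT sections. The groups overlapped, and the log2 fold change of -1.15 ± 0.45 (SE, edgeR adjusted p = 0.0181) lost its call in 7 of the 12 fits that left out 1 library, with library size alone (-0.54, adjusted p = 0.244) and without the filter on low counts.

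Psma7, the subunit that Psma8 replaces in germ cells, had 88.3, 79.0 and 87.0 CPM in KO sections, against 30.0, 11.5 and 32.3 CPM in WT sections. The groups did not overlap, and the log2 fold change was 1.27 ± 0.50 (SE, edgeR adjusted p = 0.0185). That call was lost without KO section replicate 1 (adjusted p = 0.0636) and without WT section replicate 2 (adjusted p = 0.079).

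Psma8 showed the opposite pattern. It had 1, 0 and 1 counts in KO sections, against 27, 17 and 10 in WT sections, or 2.10, 0 and 3.11 CPM in KO and 47.7, 32.5 and 40.4 CPM in WT. The ratio of pooled CPM (summed counts over summed library totals) was 24.0-fold lower in KO (6.34 to 204, exact 95% counting interval). Psma8 did not pass the filter set on all 12 libraries. A fit of the 6 section libraries alone tested 38 members and called 10 higher and 7 lower, against 30.2% higher and 36.0% lower of its 7907 genes. Psma8 and Psmb10 passed its filter only through the group where each was high, so no test of either is given. The filter on all 12 libraries leaves a like limit on some printed p-values. Among sections, Psme1, Psma2, Psma7 and Psmb1 reached its 66.1 CPM in KO only, and Psme4 in WT only. Among Leydig-targeted libraries, Psmd5 reached it in KO only, and Psme4 and Psmf1 in WT only. In WT, Psmd2 and Psmc4 reached it in sections and not in Leydig-targeted libraries.

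Psma8 made up 1 of 43, 0 of 31 and 1 of 29 counts of the Psma7 and Psma8 pair in KO sections, or 1.94% pooled (0.236% to 6.84%, exact 95%). In WT sections it made up 61.4%, 73.9% and 55.6% of the pair, or 63.5% pooled (52.4% to 73.7%). The per-library intervals of KO and WT did not overlap. The sum of the pair differed less than either gene, at 86.5 ± 6.47 CPM in KO sections and 64.8 ± 18.2 CPM in WT sections (SD, n = 3 each).

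**Figure D3:**
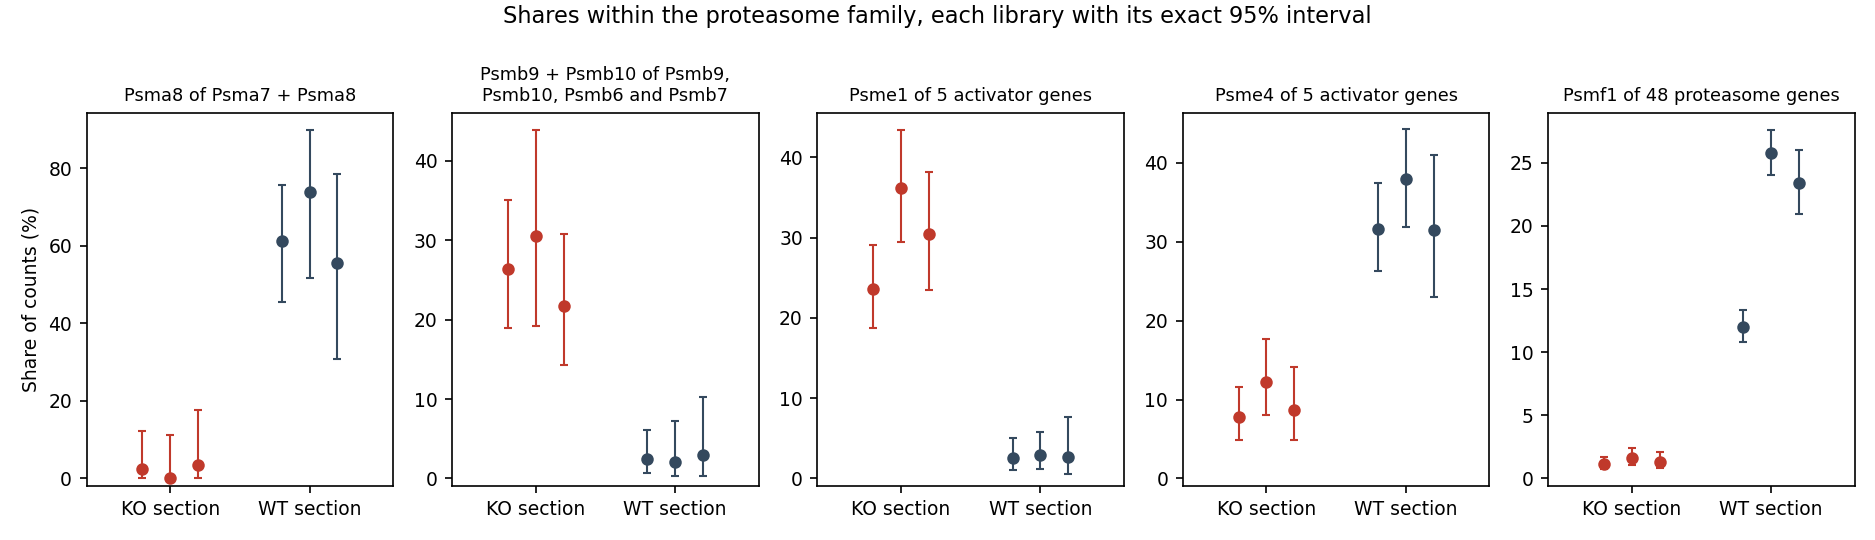
Share of counts taken by single members within their subgroup in each entire-section library, KO left of WT, with exact 95% intervals that cover counting error only. Psma8, Psme4 and Psmf1 take a smaller share in KO, and Psme1 and the pair Psmb9 and Psmb10 a larger one, with no KO library inside the range of the WT libraries.

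The beta ring was summed over 7 standard genes at 752 ± 88.2 CPM in KO sections and 527 ± 91.5 CPM in WT sections (SD, n = 3 each). Of 5 tested, only Psmb1, a structural subunit without an active site, was called. Psmb1 had 114, 96.9 and 162 CPM in KO sections, against 51.2, 36.4 and 16.2 CPM in WT sections, without overlap. Its log2 fold change was 1.16 ± 0.46 (SE, edgeR adjusted p = 0.0192), and the call was lost without KO section replicate 3 (adjusted p = 0.116) or WT section replicate 3 (adjusted p = 0.14).

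The active-site subunits were not called. Psmb5, the chymotrypsin-like subunit, had 44.1, 58.6 and 71.5 CPM in KO sections, against 38.8, 19.1 and 36.4 CPM in WT sections, with a log2 fold change of 0.33 (95% interval -0.65 to 1.31). Psmb6, the caspase-like subunit, had 193, 105 and 258 CPM in KO sections, against 282, 179.9 and 267 CPM in WT sections. The groups of Psmb6 overlapped and its log2 fold change of -0.94 ± 0.44 (SE) had an edgeR adjusted p of 0.0504. Psmb7, the trypsin-like subunit, had 1 count in all 12 libraries, and 405 of its exonic bases overlap Nek6 on the opposite strand, so its level cannot be read here.

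Both inducible subunits in the table had higher CPM in every KO section than in any WT section. Psmb10, the replacement of Psmb7, had 27, 14 and 21 counts in KO sections, against 3, 2 and 2 in WT sections, or 52.6 ± 15.2 CPM in KO and 5.73 ± 2.16 CPM in WT (SD, n = 3 each). The ratio of pooled CPM was 9.95-fold (4.55 to 25.8, exact 95% counting interval). The filter on all 12 libraries left it out.

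Psmb9, the replacement of Psmb6, had 6, 4 and 2 counts in KO sections, against 1, 0 and 0 in WT sections. Its ratio of pooled CPM was 13.5-fold with a counting interval of 2.0 to 576, and 212 of its exonic bases overlap Tap1 on the opposite strand. Together Psmb9 and Psmb10 made up 26.4%, 30.5% and 21.7% of the counts of Psmb6, Psmb7, Psmb9 and Psmb10 in KO sections, or 25.5% pooled (20.6% to 30.9%). In WT sections the same share was 2.44%, 2.06% and 2.94%, or 2.43% pooled (1.06% to 4.73%). Since Psmb7 was nearly uncounted, this is in effect a share beside Psmb6 and does not measure how much of Psmb7 was replaced. Psmb11, the thymus-specific subunit, had 1 count in KO sections and 0 counts in WT sections.

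Of the 5 ATPases of the base that were tested, 2 were lower in KO sections and the other 3 were not called. The 6 genes of the class summed to 502 ± 26.9 CPM in KO sections and 719 ± 33.7 CPM in WT sections (SD, n = 3 each), without overlap.

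Psmc2 had 82.0, 120 and 121 CPM in KO sections, against 272, 377 and 311 CPM in WT sections. Its libraries did not overlap between genotypes, and its log2 fold change was -2.20 ± 0.46 (SE, edgeR adjusted p = 5.84e-06). Psmc3 had 56.8, 76.5 and 112 CPM in KO sections, against 184, 212 and 226 CPM in WT sections. It was lower in every KO section than in any WT section, by a log2 fold change of -1.95 ± 0.46 (SE, edgeR adjusted p = 5.68e-05), and 215 of its exonic bases overlap Slc39a13 on the opposite strand. Psmc1, Psmc4 and Psmc6 had log2 fold changes between 0.10 and 0.31 and were not called.

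Among the 11 non-ATPase subunits of the regulatory particle, 8 were tested and 2 fell. Psmd2, the scaffold where ubiquitin-binding shuttle proteins dock, had 94.6, 112 and 140 CPM in KO sections, against 192, 230 and 162 CPM in WT sections. Its groups did not overlap, and its log2 fold change was -1.38 ± 0.44 (SE, edgeR adjusted p = 0.00352). Psmd8, a subunit of the lid, had 195, 112 and 165 CPM in KO sections, against 302, 256 and 218 CPM in WT sections, also without overlap. The log2 fold change of Psmd8 was -1.30 ± 0.44 (SE, edgeR adjusted p = 0.00667). With library size alone both calls were lost, at log2 fold changes of -0.77 (adjusted p = 0.0729) for Psmd2 and -0.72 (adjusted p = 0.0908) for Psmd8, and both were also lost without the filter on low counts. The call of Psmd8 was lost without KO section replicate 2 (adjusted p = 0.0807) and without WT section replicate 1 (adjusted p = 0.116).

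The uncalled members of the lid and base included Psmd14, the deubiquitinase that removes ubiquitin chains. Psmd14 had the highest mean level of the family in KO sections, at 412 ± 50.6 CPM, against 242 ± 85.6 CPM in WT sections (SD, n = 3 each). Its log2 fold change was 0.20 (95% interval -0.66 to 1.06) after scaling. Psmd4, a ubiquitin receptor, had a log2 fold change of 0.00 (95% interval -0.85 to 0.86). Over all 18 members tested and not called, log2 fold changes ran from -0.94 to 0.72. Psmd5, an assembly chaperone of the base and the only assembly factor tested, had a log2 fold change of 0.42 and was not called, and the 7 assembly factors summed to 203 ± 9.84 CPM in KO sections and 143 ± 22.5 CPM in WT sections (SD, n = 3 each).

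The activator caps moved in opposite directions. Their 5 genes summed to 523 ± 40.1 CPM in KO sections and 471 ± 23.9 CPM in WT sections (SD, n = 3 each), while Psme1 rose and Psme4 fell.

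Psme1, the interferon-inducible alpha subunit of PA28, had 135, 181 and 152 CPM in KO sections, against 12.4, 13.4 and 12.1 CPM in WT sections. Every KO section was far above every WT section, and the log2 fold change was 2.98 ± 0.52 (SE, edgeR adjusted p = 4.73e-08). Psme1 made up 23.6%, 36.2% and 30.4% of the counts of the activator genes in KO sections, against 2.49%, 2.86% and 2.70% in WT sections.

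Psme2, its partner in PA28, had 7 counts in KO sections and 2 in WT sections. Its near-identical copy Psme2b had 28 counts in KO sections and 0 in WT sections. That is 10.5-fold higher with a floor of 3 counts set over the WT group, leaving out counting error in KO. The longest coding transcripts of the 2 genes were identical at 99.4% of 794 aligned bases, so most aligned bases do not tell the 2 apart. How reads were assigned between them was not examined, and the ratio for Psme2b alone rests on that assignment. Summed over both, they had 14, 14 and 7 counts in KO sections, against 1, 0 and 1 in WT sections.

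Psme4, the PA200 cap, had 44.1, 61.2 and 43.5 CPM in KO sections, against 157, 178 and 141 CPM in WT sections. The groups did not overlap, and the log2 fold change was -2.28 ± 0.45 (SE, edgeR adjusted p = 1.25e-06). Psme4 made up 7.75%, 12.2% and 8.70% of activator counts in KO sections, against 31.7%, 38.0% and 31.5% in WT sections. Psme3, the nuclear cap PA28 gamma, had 362, 222 and 283 CPM in KO sections, against 325, 277 and 291 CPM in WT sections. Its groups overlapped, and its log2 fold change of -0.62 (95% interval -1.48 to 0.23) was not called (edgeR adjusted p = 0.206).

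Psmf1, also called PI31, which inhibits the core in the test tube, had the largest log2 fold change in size of the 29 members tested. It had 52.5, 71.4 and 59.0 CPM in KO sections, against 542, 1173 and 1042 CPM in WT sections. All KO sections were below all WT sections, and the log2 fold change was -4.55 ± 0.53 (SE, edgeR adjusted p = 5.36e-17). In WT sections it had the highest mean level of any proteasome gene, 919 ± 333 CPM, with replicate 1 well below the other two. It made up 1.17%, 1.65% and 1.32% of family counts in KO sections and 12%, 25.8% and 23.4% in WT sections.

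**Figure D4:**
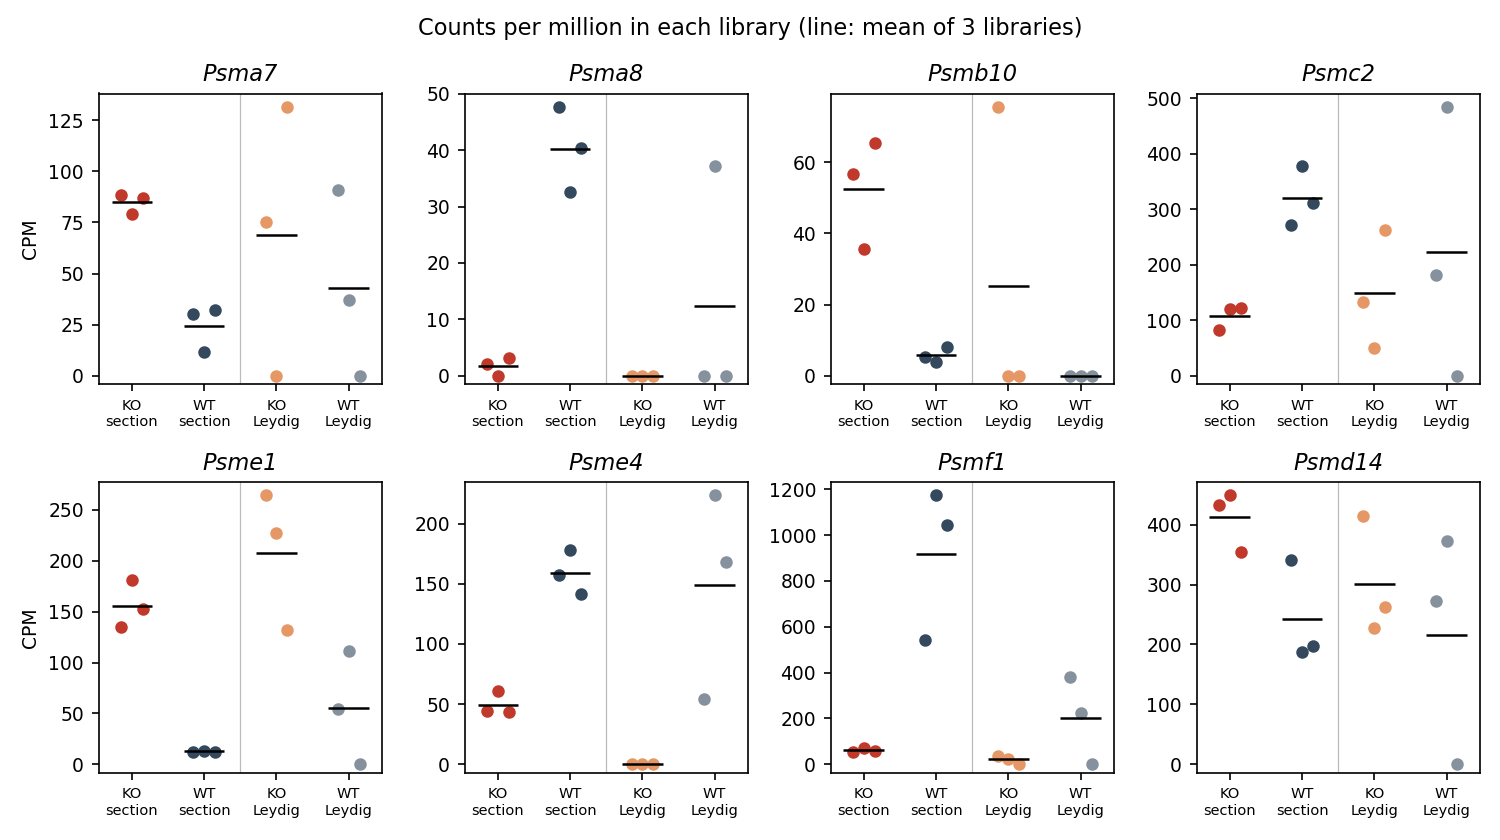
CPM of 8 proteasome genes in each of the 12 libraries, KO left of WT for entire sections and for Leydig-targeted libraries, with lines at the means of 3 libraries. Psme4 is at 0 in all KO Leydig-targeted libraries, and the Leydig-targeted values spread widely, with 1 count there worth 18.2 to 168 CPM.

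Psmc3ip, left out of the counts above, had 1, 3 and 1 counts in KO sections and 18, 21 and 7 in WT sections, and 385 of its exonic bases overlap Mlx on the opposite strand. Its ratio of pooled CPM was 8.19-fold lower in KO (3.27 to 26.4, exact 95% counting interval).

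In Leydig-targeted libraries, Psmf1 and Psme4 were lower in KO and Psmd5 was higher. Of the 29 members tested, these were the 3 called (1 higher, 2 lower), against 28.5% of all genes called, 7.55% higher and 20.9% lower. Psmf1 had 2, 1 and 0 counts in KO Leydig-targeted libraries, against 21, 6 and 0 in WT Leydig-targeted libraries. Both groups held a library at 0, and the log2 fold change was -3.52 ± 0.95 (SE, edgeR adjusted p = 0.00223). The ratio of pooled CPM was 11.1-fold lower (3.41 to 57.0, exact 95% counting interval). Without WT Leydig-targeted replicate 1 the call was lost (adjusted p = 0.12), and it was lost without the filter (adjusted p = 0.0897).

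Psme4 had 0 counts in all 3 KO Leydig-targeted libraries, against 3, 6 and 1 counts in WT Leydig-targeted libraries. That is 4.10-fold lower with a floor of 3 counts set over the KO group, leaving out counting error in WT (edgeR adjusted p = 0.00393, and 0.0765 without the filter). Psmd5 had 8, 8 and 3 counts in KO Leydig-targeted libraries, against 0, 1 and 0 in WT Leydig-targeted libraries. The libraries did not overlap, and the ratio of pooled CPM was 15.4-fold higher in KO with a counting interval of 2.45 to 642 (edgeR adjusted p = 0.0153). The call of Psmd5 was lost without WT Leydig-targeted replicate 1 (adjusted p = 0.279).

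Psme1 had 14, 9 and 2 counts in KO Leydig-targeted libraries, against 3, 3 and 0 in WT Leydig-targeted libraries. In CPM every KO library was above every WT library, but its log2 fold change of 1.49 ± 0.79 (SE) was not called (edgeR adjusted p = 0.147). Psma7 had 6 counts in each of the KO and WT Leydig-targeted groups, and Psma8 had 0 counts in KO and 1 in WT. Psmb10 had 4 counts in KO, all in replicate 1, and 0 in WT, and Psmb9 had 0 counts in both groups. The median log2 fold change of the 29 members was -0.03, against -0.28 over all genes. It was 0.17 against -0.09 with library size alone and -0.39 against -0.66 with ribosomal protein gene scaling, where 260 genes were higher and 1333 lower, against 391 and 1085 with TMM.

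Within the activator genes, Psme1 made up 25 of 50 counts in KO Leydig-targeted libraries (50%, exact 95% interval 35.5% to 64.5%) and 6 of 30 in WT Leydig-targeted libraries (20.0%, 7.71% to 38.6%). Psme4 made up 0 of 50 counts in KO, with an upper bound of 7.11%, and 10 of 30 in WT (33.3%, 17.3% to 52.8%). Of 30 proteasome genes with at least 10 counts over the 6 Leydig-targeted libraries, 8 (26.7%) had every KO library above every WT library, against 15.9% of all genes. Only Psme4 (3.33%) had every KO library below every WT library, against 11.1% of all genes. WT Leydig-targeted replicate 3 had counts for only 8 proteasome genes and for 2568 genes in all. A gene at 0 there cannot have every KO library below every WT library. The shares above and below therefore cannot be set against each other. Spermatid and spermatocyte markers moved with Psmf1 and Psme4 here too. In KO Leydig-targeted libraries 6 of 10 spermatid markers (Tnp1, Tnp2, Acr, Crisp2, Tssk1 and Odf1) and 6 of 10 spermatocyte markers (Ldhc, Piwil1, Sycp3, Spag6l, Clgn and Tdrd6) had no count, and none was at 0 over the WT Leydig-targeted group. Spermatocyte markers took 0.0057% to 0.0076% of counts in KO and 0.639% to 0.765% in WT Leydig-targeted libraries.

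Leydig-targeted libraries were also set against entire sections within each genotype. These comparisons share the section libraries with the genotype comparison above. In KO, 0 of the 29 members were called higher and 0 lower (edgeR and DESeq2), against 5.44% of all genes called, 1.91% higher and 3.53% lower. Before adjustment, 3 members had a p under 0.05. In WT, 0 members were higher and 4 lower in the Leydig-targeted libraries, against 15.6% of all genes called, 3.22% higher and 12.4% lower, and the median log2 fold change of members was -0.55 against -0.67 over all genes. These directions depended on the scaling in WT. With library size alone the medians were 0.01 over members and -0.09 over all genes, with 320 genes higher and 241 lower. With ribosomal protein gene scaling they were 0.30 and 0.20, with 480 genes higher and 143 lower, against 167 higher and 642 lower with TMM. In KO the medians were -0.29 over members and -0.42 over all genes with TMM, and 0.05 and -0.11 with ribosomal protein gene scaling, where 230 genes were higher and 137 lower against 99 and 183 with TMM. With library size alone 195 genes were higher and 176 lower in KO.

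Psmf1 was lower in WT Leydig-targeted libraries than in WT sections by a log2 fold change of -2.34 ± 0.55 (SE, edgeR adjusted p = 8.08e-04). Psmd2 had 1 count in WT Leydig-targeted libraries and 269 in WT sections (edgeR adjusted p = 5.56e-04). Its ratio of pooled CPM was 17.6-fold lower (3.14 to 700, exact 95% counting interval). Psmc4 had 0 counts in WT Leydig-targeted libraries and 71 in WT sections (edgeR adjusted p = 0.0292). That is 1.55-fold lower with a floor of 3 counts set over the Leydig-targeted libraries, leaving out counting error in sections. Psme3 was lower by a log2 fold change of -1.96 ± 0.65 (SE, edgeR adjusted p = 0.0244). The calls of Psmc4 and Psme3 were lost with library size alone, with scaling on ribosomal protein genes and without WT section replicate 1 or WT Leydig-targeted replicate 1 or 3, among others. Of the 29 members, 0 were called in the genotype by region interaction (edgeR and DESeq2), against 0.328% of all genes (0.193% higher and 0.135% lower). The unadjusted p was under 0.05 for 3 of them.

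Genes that act with the proteasome were counted beside it. Of 35 ubiquitin pathway genes in the table, 28 were tested, and 3 were higher and 5 lower in KO sections, against 22.6% higher and 39.1% lower over all genes, with a median log2 fold change of -0.08 against -0.35 over all genes. Ddi1, a shuttle-type aspartyl protease of the DDI family, was lower at a log2 fold change of -5.70 ± 0.73 (SE, edgeR adjusted p = 4.28e-14). Ngly1, the glycanase that processes the transcription factor encoded by Nfe2l1, was lower at -3.67 ± 0.51 (SE, edgeR adjusted p = 2.55e-12), and Akirin2, which brings proteasomes into the nucleus, at -2.88 ± 0.47 (SE, edgeR adjusted p = 5.05e-09). Tpp2, a peptidase that trims proteasome products, and Uchl5, a deubiquitinase of the regulatory particle, were also lower. Nfe2l2, a regulator of antioxidant genes, was higher at 2.12 ± 0.46 (SE, edgeR adjusted p = 1.46e-05). Adrm1, a ubiquitin receptor of the regulatory particle, and Nfe2l1, which drives proteasome genes when the complex is inhibited, were the other 2 higher genes.

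Of 21 antigen processing and interferon genes in the table, 7 were tested in sections, and 6 were higher and 0 lower in KO. Over all genes tested, 22.6% were higher and 39.1% lower. The median log2 fold change was 1.91 over the 7 genes and -0.35 over all genes. They included Irf8, a transcription factor of macrophages, at 2.55 ± 0.50 (SE, edgeR adjusted p = 1.17e-06) and B2m, the light chain of class I molecules, at 2.37 ± 0.48 (SE, edgeR adjusted p = 3.37e-06). H2-D1, a class I heavy chain, was higher at 1.91 ± 0.48 (SE, edgeR adjusted p = 1.82e-04). The genes of the list took 0.228% to 0.437% of counts in KO sections and 0.044% to 0.0868% in WT sections.

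Markers of macrophages and of other somatic cells moved with these genes and with Psme1, Psmb9 and Psmb10. The 10 macrophage markers took 0.104% to 0.333% of counts in KO sections and 0.0207% to 0.0473% in WT sections, with none of the 10 at 0 in either group. All 7 tested were higher in KO, against 22.6% higher and 39.1% lower of all genes tested. Genes this low in WT sections, like those of the antigen list, could pass the filter on low counts mainly through KO libraries. The 5 T and NK lymphocyte markers took 0.0055% to 0.0065% of counts in KO sections and 0.0008% to 0.002% in WT sections, with Nkg7 at 0 in WT sections. The 10 Leydig markers took 3.44% to 4.18% of counts in KO sections and 0.312% to 0.626% in WT sections, and the 10 Sertoli markers 1.58% to 1.67% in KO and 0.337% to 0.64% in WT. The 5 peritubular myoid markers took 0.1476% to 0.1945% of counts in KO sections and 0.048% to 0.1015% in WT sections. For the 5 endothelial markers these were 0.011% to 0.0116% and 0.0046% to 0.0104%. Of 3 myoid markers tested, 1 was higher in KO sections, against 22.6% of all genes tested, and the 1 endothelial marker tested was not called. The part of these cell types in the levels of Psme1, Psmb9 and Psmb10 was not tested.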

How the data were processed

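The deposited table holds raw whole-number counts per gene, with no normalization by the authors, for 12 libraries. The submitters' processing notes name HISAT2, featureCounts, Trim Galore and UMI-tools, and the genome build GRCm38, per the labels. Versions and step order are not stated there. Whether counting used strand is also not given, so genes that overlap on opposite strands cannot be told apart. Section libraries held between 247539 and 566527 counts, and Leydig-targeted ones between 5947 and 54882. Levels between genes are compared as counts or CPM only, with no correction for length.

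CPM are counts scaled to the library total. Counts were tested with edgeR 4.0.16 in R 4.3.3 (robust quasi-likelihood, TMM scaling) in a fit of all 12 libraries with a coefficient per group, on 5182 genes that passed the package's filter with a minimum count of 10, here 66.1 CPM in at least 3 libraries. Calls were made at a Benjamini-Hochberg adjusted p under 0.05 over all genes tested. Ratios of pooled CPM divide summed counts by summed library totals in each group, and are not ratios of mean CPM. Intervals of ratios and shares are exact 95% intervals and cover counting error only. A floor of 3 counts stands in for a group at 0 and leaves out counting error in the other group. The fitting code was run on simulated counts with changes drawn evenly in both directions in a small set of genes. That run did not test the scaling used on these data. Gene positions came from GENCODE M21 on GRCm38, and promoter windows from RefSeq on GRCm38.p6.

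Members, gene lists and tests were chosen with earlier results of these data known. Named were all called members, the alternative and active core subunits and the caps, and up to 4 genes of the ubiquitin and antigen lists by p, of which 1 is not reported here; further genes are named without values where they complete a small count. Psmd14 and Psmd4 were named after their values were seen. Same-numbered section libraries of KO and WT deviated together (correlations across genes of 0.244, 0.115 and 0.19), while other same-numbered pairs lay between -0.0569 and 0.0527, so numbers were taken to pair sections only. The alternatives were other scalings, DESeq2 1.42.0, other filters, a replicate block over all 12 libraries, fits of 2 groups and fits without 1 library.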

Additional observations from a re-analysis of the deposited data

Results flagged for a closer look

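Psmd2, the scaffold of the regulatory particle, had every KO library below every WT library in sections and every KO library above every WT library in CPM in the Leydig-targeted area. It had 94.6, 112 and 140 CPM in KO sections against 192, 230 and 162 CPM in WT sections, but 5, 6 and 1 counts in KO Leydig-targeted libraries against 1, 0 and 0 counts in WT Leydig-targeted libraries. The difference was called in sections (log2 fold change -1.38 ± 0.44, SE) and not in Leydig-targeted libraries (3.00 ± 1.38, SE, edgeR adjusted p = 0.0908). The genotype by region interaction was 4.37 ± 1.39 on the log2 scale (SE) and was not called (edgeR quasi-likelihood adjusted p = 0.133).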

How the results depend on the processing

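In KO against WT sections, 4 members were called higher and 7 lower. With library size alone these counts were 11 and 4 (1861 and 1707 of all 5182 genes). With a minimum count of 3 they were 7 and 9 (1608 and 3706 of 10094 genes), without a filter 8 and 5 (2416 and 4639 of 26389 genes), and in the fit of the 2 groups alone 10 and 7 (2390 and 2848 of 7907 genes). In Leydig-targeted libraries, KO against WT gave 1 higher and 2 lower (391 and 1085 of all 5182 genes). Library size alone gave 2 and 2 (560 and 1034), and a minimum count of 3 gave 2 and 2 (376 and 1110 of 10094 genes). No filter gave 2 higher and 0 lower (388 and 437 of 26389 genes). The fit of the 2 groups alone tested no member. In WT Leydig-targeted libraries against sections (0 higher, 4 lower), library size alone gave 1 and 2 (320 and 241 of all 5182 genes). Scaling to ribosomal protein genes gave 2 and 2 (480 and 143). A minimum count of 3 gave 1 higher and 6 lower (172 and 1169 of 10094 genes), as did no filter (159 and 1443 of 26389 genes). The fit of the 2 groups alone gave 0 higher and 2 lower (173 and 173 of 3330 genes). In KO, Leydig-targeted against sections, the fit of the 2 groups alone called 1 higher (229 higher and 239 lower of all 3894 genes). Of protein-coding counts, the family held 0.465% in KO sections and 0.487% in WT sections, and without Psmf1 it held 0.359% of all counts in WT sections. The causes were not tested, beyond the different numbers of genes tested under other filters. No called value reversed.

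Leaving out 1 library at a time gave 3 to 6 higher and 5 to 8 lower in sections. In Leydig-targeted libraries it gave 0 to 1 higher and 1 to 3 lower. For WT regions it gave 0 to 1 higher and 2 to 4 lower, for KO regions 0 higher and 0 to 1 lower, and 0 in the interaction. Over all 5182 genes, those fits called 914 to 1588 higher and 1742 to 2046 lower in sections. In Leydig-targeted libraries they called 69 to 428 and 523 to 1273, and for WT regions 105 to 242 and 234 to 687. For KO regions they called 44 to 136 and 63 to 489, and in the interaction 2 to 9 and 4 to 72. The summed share ran from 0.440% to 0.447% in KO sections, 0.448% to 0.453% in WT sections, 0.399% to 0.498% in KO Leydig-targeted libraries and 0.280% to 0.396% in WT Leydig-targeted libraries. The Psma8 share of its pair ran from 1.35% to 2.78% in KO sections and 59.7% to 65.9% in WT sections. In Leydig-targeted libraries it stayed at 0% in KO, over 6 counts in all, and ran from 0% to 50% in WT, over 7 counts. The inducible share ran from 24.2% to 27.7% in KO sections and 2.30% to 2.59% in WT sections. In KO Leydig-targeted libraries it ran from 0% to 40.0%, over 14 counts in all. In WT Leydig-targeted libraries it stayed at 0% over 11 counts, all in replicate 1, too few to read.

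The replicate block was fitted by replicate number over all 12 libraries, although numbers were taken to pair sections only. It left the section counts at 4 higher and 7 lower and changed no count of called members in the other comparisons. Depth limits the Leydig-targeted libraries most: the smallest held 10 proteasome counts, and 3 counts there equal 504 CPM.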
